A study of Mus musculus with 24 samples.

Results

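The hearts of Trex1-deficient mice given SN-011 were compared with the hearts of Trex1-deficient control mice by RNA-Seq. The comparison holds the 6 samples labelled heart, 3 titled as SN-011 and 3 as control, of 24 samples in the series, and takes in every gene counted. The other 18 samples are stomach, muscle and tongue of the same 2 kinds of mice. All mice carry the Trex1 knockout, on the C57BL/6J background per the study's methods, so no wild-type heart stands beside them. The labels give SN-011 at 5 mg/kg, 3 times a week for 4 weeks, and call the controls untreated. The study's methods instead give 10 mg/kg by daily intraperitoneal injection for 2 weeks from an age of 1 month, with 1% Tween 80 in PBS as vehicle for the controls. Which schedule these hearts had cannot be told from these sources, and the groups are called SN-011 and control here. The labels state neither the sex of the mice nor whether the 3 hearts of a group came from different cages or days, so p-values measure the spread between these samples.

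TREX1 is a DNA exonuclease that clears DNA from the cytosol. Without it, self DNA is sensed by cGAS, whose product cGAMP activates STING, and STING drives the transcription of type I interferon and of inflammatory genes; the heart is a main site of inflammation in mice that lack Trex1. SN-011 is an antagonist of STING. The heart itself lives mostly on the oxidation of fatty acids in mitochondria, which supply the ATP for contraction, and its cardiomyocytes share the tissue with endothelial cells, fibroblasts, mural cells and resident macrophages. In bulk tissue, fewer cells of a type and less RNA per cell cannot be told apart.

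Before the results, 3 features of the libraries bear on them. Total counts ran from 14392199 to 17337989 per heart, and 23647 to 24264 genes had counts in the control hearts against 22727 to 22941 in the SN-011 hearts, without overlap. Trex1 was listed at 0 counts in all 6 hearts; its gene lies within Atrip, which has the same strand, and reads that fall in both may be left uncounted, so this checks the knockout only in part. Control replicate 1 had 7028 counts of Xist, the transcript of the inactive X chromosome, and 3 counts of the Y-linked Ddx3y, whereas the other 5 hearts had 2 to 5 and 825 to 1051 counts, so 1 control heart had the pattern of a female and 5 hearts that of males. Control replicate 2 held RNA of 8 genes of the gastric glands, a list made after the values were seen, at a sum of 3188 CPM (a gene's counts scaled by the size of the library), which is 3.66% of their mean sum in the control stomachs. The other sums were 28.9 and 344.6 CPM in control replicates 1 and 3 and 7.28, 12.02 and 56.6 CPM in SN-011 replicates 1 to 3. Pepsinogen C (Pgc) alone stood at 1811 CPM in control replicate 2. Counts and medians that these hearts moved are given beside most results. They are given without control replicate 1, without control replicate 2, and as a range without each of the other 4 hearts in turn. Lists without such values may have moved as well. The heart identity itself was clear, with Myh6, the main myosin heavy chain of the adult mouse heart, at 11974 to 17766 CPM in the control hearts and 16572 to 21329.9 CPM in the SN-011 hearts.

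After SN-011, 137 of the 16151 genes tested changed at an adjusted p under 0.05 (0.848%), 84 of them higher (0.52%) and 53 lower (0.328%). The test was edgeR's quasi-likelihood test on the raw counts, with p-values adjusted over all genes tested. In each of the 137 genes the 3 SN-011 hearts lay all above or all below the 3 control hearts. Over all genes, 2282 (14.1%) lay wholly above and 2114 (13.1%) wholly below, and the median log2 fold change was −0.01. At an unadjusted p under 0.05, 1737 genes were higher (10.8%) and 1878 lower (11.6%). A gene past the adjusted threshold is called. These shares are the background against which the counts of each gene list are read, since few genes pass the adjusted threshold with 3 hearts per group. Of the changed genes, 47 were at least 2-fold higher and 31 at least 2-fold lower. All 137 kept their direction in each of 16 other fits in which they could be fitted, 7 of them not being tested when at least 10 counts were asked of every library. Leaving out a heart can hardly turn a gene whose groups do not overlap, and the other fits reuse the same hearts. The kept direction is therefore no separate support. The number of calls differed between fits. It was 183 without control replicate 1 (106 higher and 77 lower, 85 of them among the 137) and 787 without control replicate 2 (379 and 408, all 137 among them). It was 32 without control replicate 3, and 5, 1 and 9 without SN-011 replicates 1, 2 and 3. Genes at an unadjusted p under 0.05, in either direction, numbered 3615 with every heart kept. They numbered 3257 without control replicate 1, 4247 without control replicate 2 and 2669 without control replicate 3. Without SN-011 replicates 1, 2 and 3 they numbered 2788, 2343 and 3071. These fits tested 16483 to 16765 genes. List counts with a heart left out are read against these numbers, since the background moved too. With library sizes alone in place of TMM scaling, where the median of all genes was −0.16, 65 genes were higher and 184 lower.

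**Figure D1:**
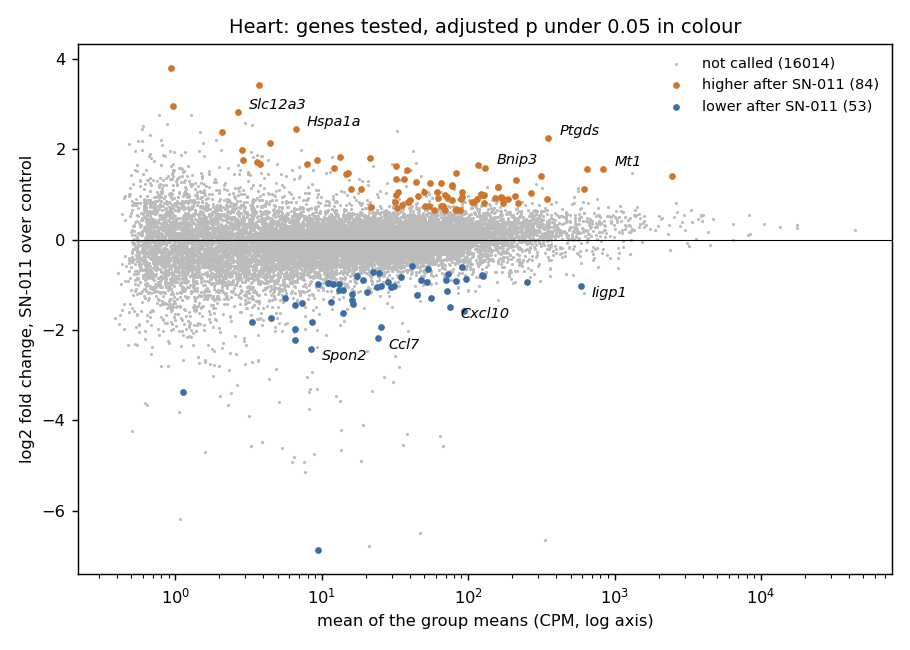
Mean abundance in CPM (log axis) against the log2 fold change of SN-011 over control hearts for all 16151 genes tested, 3 hearts per group. The 84 genes called higher (orange) and 53 called lower (blue) are coloured. Among the strongly negative grey points are gastric genes such as Pgc, which control replicate 2 held at 1811 CPM of its total counts.

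The largest rises among annotated genes took in a prostaglandin synthase, an inducible chaperone and several transport and signalling proteins. Ptgds, the lipocalin-type synthase of prostaglandin D2, stood at 109, 134 and 128 CPM in the control hearts and 438, 620.2 and 689.5 CPM in the SN-011 hearts (ENSMUSG00000015090, chromosome 2, 25466709 to 25470046). Every SN-011 heart was at least 3-fold above every control heart (log2 fold change 2.24, standard error 0.19, adjusted p = 0.00643). Slc12a3, the thiazide-sensitive sodium chloride cotransporter known best from the kidney, stood at 0.707, 0.276 and 0.963 CPM in the control hearts and 5.37, 5.92 and 2.84 CPM in the SN-011 hearts (ENSMUSG00000031766, chromosome 8, 94329201 to 94366214; log2 fold change 2.81, standard error 0.47, adjusted p = 0.0383). Hspa1a, an inducible HSP70 chaperone whose near-identical copy Hspa1b may share its reads, stood at 1.36, 2.49 and 2.35 CPM in the control hearts and 5.64, 10.8 and 17.3 CPM in the SN-011 hearts (ENSMUSG00000091971, chromosome 17, 34969190 to 34972156; log2 fold change 2.45, standard error 0.42, adjusted p = 0.0403). Fmo2 encodes a flavin monooxygenase that oxidises drugs and other small molecules, and no SN-011 heart overlapped a control heart. It stood at 65.8, 48.3 and 56.9 CPM in the control hearts and 202, 185 and 147 CPM in the SN-011 hearts (ENSMUSG00000040170, chromosome 1, 162874317 to 162898726; log2 fold change 1.64, standard error 0.16, adjusted p = 0.00894). Phyhd1, of the phytanoyl-CoA dioxygenase family, stood at 10.8, 9.53 and 8.13 CPM in the control hearts and 27.3, 33.1 and 38.97 CPM in the SN-011 hearts (ENSMUSG00000079484, chromosome 2, 30266203 to 30282149; log2 fold change 1.80, standard error 0.18, adjusted p = 0.00894). Cys1, which encodes the cilium protein cystin, stood at 6.26, 5.39 and 5.83 CPM in the control hearts and 16.1, 22.6 and 23.2 CPM in the SN-011 hearts (ENSMUSG00000062563, chromosome 12, 24665833 to 24681813; log2 fold change 1.82, standard error 0.19, adjusted p = 0.00934). Tnfrsf25 encodes death receptor 3, a receptor of the TNF family, and also rose without overlap. Its values were 3.54, 4.696 and 4.44 CPM in the control hearts and 11.8, 14.9 and 16.3 CPM in the SN-011 hearts (ENSMUSG00000024793, chromosome 4, 152115934 to 152120119; log2 fold change 1.76, standard error 0.21, adjusted p = 0.0182).

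The other largest rises were of genes at a few CPM or of little-studied function. Ppbp, a chemokine stored in platelet granules, rose from 1.13 ± 0.228 to 4.54 ± 1.64 CPM (SD, 3 hearts in each group; ENSMUSG00000029372, chromosome 5, 90768518 to 90770063; log2 fold change 1.99, adjusted p = 0.0454). Clec12b, a C-type lectin receptor, rose from 0.66 ± 0.266 to 3.49 ± 0.311 CPM (ENSMUSG00000030158, chromosome 6, 129375515 to 129385874; log2 fold change 2.39, adjusted p = 0.0332). Shld1, a subunit of the shieldin complex that acts at DNA double-strand breaks, rose from 15.6 ± 5.15 to 48.5 ± 10.6 CPM (ENSMUSG00000044991, chromosome 2, 132686931 to 132751055; log2 fold change 1.64, adjusted p = 0.0281). The long non-coding RNA AU015791 (ENSMUSG00000113535, chromosome 12, 105513480 to 105515246) and the lectin gene Lman1l (ENSMUSG00000056271, chromosome 9, 57607085 to 57620774) had log2 fold changes of 2.95 and 1.72 at under 7 CPM in every heart. A further 8 predicted genes or pseudogenes rose.

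The largest falls joined chemokines, the apelin receptor and proteins of the cell surface and matrix. Ccl7, a chemokine that draws monocytes, stood at 28.9, 32.7 and 56.9 CPM in the control hearts and 8.13, 6.05 and 11.9 CPM in the SN-011 hearts (ENSMUSG00000035373, chromosome 11, 82045712 to 82047525; log2 fold change −2.18, standard error 0.31, adjusted p = 0.0281). Cxcl10, an interferon-induced chemokine that draws T cells through CXCR3, stood at 86.6, 93.4 and 152 CPM in the control hearts and 35.8, 32.5 and 50.1 CPM in the SN-011 hearts (ENSMUSG00000034855, chromosome 5, 92346638 to 92348889; log2 fold change −1.49, standard error 0.24, adjusted p = 0.0332). In both the highest SN-011 heart lay below the lowest control heart. Aplnr, the receptor of apelin on endothelial cells, stood at 24.1, 37.2 and 59.4 CPM in the control hearts and 12.6, 12.03 and 7.0 CPM in the SN-011 hearts (ENSMUSG00000044338, chromosome 2, 85136225 to 85139923; log2 fold change −1.94, standard error 0.34, adjusted p = 0.0403). The extracellular protein spondin 2 (Spon2) is a matrix protein that binds pathogens and integrins. Its gene stood at 16.1, 9.39 and 17.5 CPM in the control hearts and 4.77, 1.91 and 1.32 CPM in the SN-011 hearts (ENSMUSG00000037379, chromosome 5, 33198184 to 33218455; log2 fold change −2.43, standard error 0.45, adjusted p = 0.0493), with adjusted p close to the threshold.

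Gal3st3, a sulfotransferase that acts on galactose, stood at 8.11, 11.1 and 12.4 CPM in the control hearts and 2.75, 2.63 and 2.65 CPM in the SN-011 hearts (ENSMUSG00000047658, chromosome 19, 5298331 to 5308738; log2 fold change −1.97, standard error 0.24, adjusted p = 0.0182), so the 3 SN-011 hearts differed by less than 0.2 CPM. Dclk1, a doublecortin-like kinase, fell from 13.4 ± 3.02 to 3.81 ± 1.03 CPM (ENSMUSG00000027797, chromosome 3, 55242364 to 55539068; log2 fold change −1.81, adjusted p = 0.0281). Scara3, a scavenger receptor, fell from 9.65 ± 1.69 to 3.53 ± 0.466 CPM (ENSMUSG00000034463, chromosome 14, 65919394 to 65953935; log2 fold change −1.45, adjusted p = 0.0308). Fgfbp3, which binds fibroblast growth factors, fell from 6.900 ± 1.86 to 2.07 ± 0.501 CPM (ENSMUSG00000047632, chromosome 19, 36917550 to 36919615; log2 fold change −1.73, adjusted p = 0.0444). Nrep, named for neuronal regeneration and expressed in fibroblasts, fell from 23.9 ± 6.38 to 8.96 ± 1.52 CPM (ENSMUSG00000042834, chromosome 18, 33437019 to 33464029; log2 fold change −1.42, adjusted p = 0.0297). Ighv1-81, a variable gene of the immunoglobulin heavy chain, had 2.39, 1.04 and 2.78 CPM in the control hearts and 2 to 5 counts in each SN-011 heart (ENSMUSG00000094689, chromosome 12, 115920279 to 115920712; log2 fold change −3.37). Of the 53 genes that fell, 3 were pseudogenes or predicted genes.

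**Figure D2:**
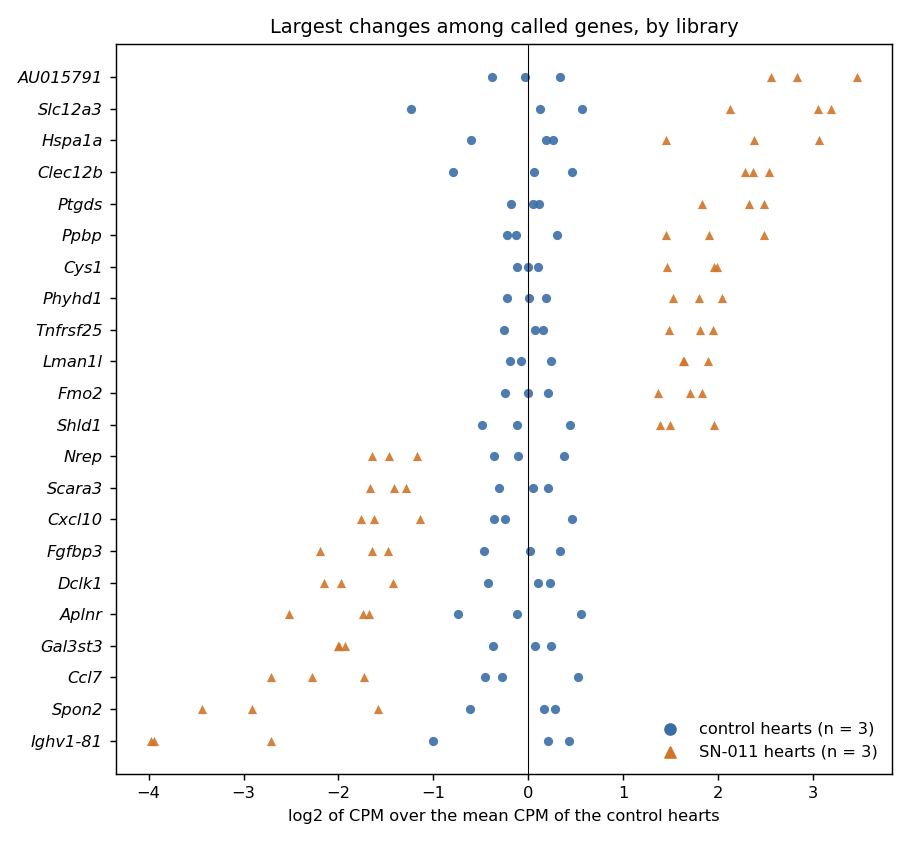
Log2 of each heart's CPM over the mean of the 3 control hearts for the 12 genes with the largest rises and 10 of the 12 with the largest falls among annotated called genes. Circles are the 3 control hearts and triangles the 3 SN-011 hearts, and in no gene do they overlap.

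Promoter sequence is shown for 4 of the called genes, 2 interferon-induced genes that fell and 2 known glucocorticoid-induced genes that rose, because each holds a motif named for that response. The motifs were searched on both strands in the 250 bases before the start of 32851 promoters of RefSeq on GRCm38.p6. An interferon-response type motif (ISRE, GAAANNGAAA) was in 2.98% of all promoters, in 4 of the 30 matched genes that fell (Cxcl10, Gbp5, Smc2 and Txndc5) and in 3 of the 64 matched genes that rose (Glul, Plcd3 and Pnrc1). The palindromic motif GNACANNNTGTNC of the glucocorticoid receptor (GRE) was in 0.39% of all promoters, in 2 genes that rose, Mt1 and Trim63, and in 0 that fell. The forkhead motif GTAAACA of FoxO factors was in 3.17% of promoters, in Fmo2 and Trim63 among the genes that rose and in 0 that fell. The share of all promoters counts each promoter entry, whereas a called gene counts if any of its promoters matches, so these shares are not alike. Of the 84 genes that rose 64 had a promoter in this set, and of the 53 that fell 30 had. A match describes letters in this window and does not show that a factor binds there. Capitals mark the ISRE in Cxcl10 (chr5:92348890-92349139, minus strand) and Gbp5 (chr3:142496684-142496933, plus strand), where the match lies on the opposite strand in Gbp5, and the GRE in Mt1 (chr8:94178839-94179088, plus strand). In Trim63 (chr4:134314870-134315119, plus strand) they mark the GRE and, 1 base further on, the forkhead motif on the opposite strand.
Cxcl10: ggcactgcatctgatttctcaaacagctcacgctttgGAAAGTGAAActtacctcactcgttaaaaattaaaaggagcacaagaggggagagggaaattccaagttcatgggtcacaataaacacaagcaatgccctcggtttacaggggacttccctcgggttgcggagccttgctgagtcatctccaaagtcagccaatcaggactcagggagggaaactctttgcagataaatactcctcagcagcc
Gbp5: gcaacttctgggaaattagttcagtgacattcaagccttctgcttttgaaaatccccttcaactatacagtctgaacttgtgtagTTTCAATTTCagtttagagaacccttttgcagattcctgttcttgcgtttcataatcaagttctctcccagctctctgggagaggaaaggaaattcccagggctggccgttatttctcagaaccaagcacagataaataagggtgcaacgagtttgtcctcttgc
Mt1: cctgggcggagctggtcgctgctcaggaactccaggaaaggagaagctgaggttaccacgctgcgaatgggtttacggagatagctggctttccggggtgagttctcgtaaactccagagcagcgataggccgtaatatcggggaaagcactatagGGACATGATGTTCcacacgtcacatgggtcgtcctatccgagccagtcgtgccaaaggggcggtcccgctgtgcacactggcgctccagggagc
Trim63: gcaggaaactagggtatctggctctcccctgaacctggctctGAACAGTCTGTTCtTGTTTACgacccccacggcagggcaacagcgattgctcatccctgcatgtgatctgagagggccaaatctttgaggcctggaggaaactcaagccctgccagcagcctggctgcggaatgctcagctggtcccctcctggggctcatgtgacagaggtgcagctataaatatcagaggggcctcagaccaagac

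The list of glucocorticoid targets held 3 genes that rose and 1 that fell. The 1 that fell is the gene of the receptor itself, and the other 20 members were positive. Glucocorticoids act through the receptor NR3C1, which enters the nucleus and binds GREs. Of 21 members tested, 3 rose (Mt1, Klf15 and Sult1a1), 1 fell (Nr3c1), 13 were higher and 1 lower at an unadjusted p under 0.05, and the median log2 fold change was 1.23. Mt1, the metal-binding metallothionein 1, stood at 584, 418 and 273 CPM in the control hearts and 1134, 1514 and 1108 CPM in the SN-011 hearts (ENSMUSG00000031765, chromosome 8, 94179082 to 94180327; log2 fold change 1.56, standard error 0.27, adjusted p = 0.0403). Sult1a1, a phenol sulfotransferase, stood at 50.8, 40.7 and 41.1 CPM in the control hearts and 108, 125 and 134 CPM in the SN-011 hearts (ENSMUSG00000030711, chromosome 7, 126672865 to 126676432; log2 fold change 1.47, standard error 0.13, adjusted p = 0.00885). The receptor gene moved the other way, with a narrow spread in both groups. Nr3c1 stood at 61.4, 67.3 and 66.5 CPM in the control hearts and 43.5, 41.8 and 38.7 CPM in the SN-011 hearts (ENSMUSG00000024431, chromosome 18, 39410545 to 39519421; log2 fold change −0.66, standard error 0.10, adjusted p = 0.0308).

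Among the members that did not pass the adjusted threshold, the control hearts spread widely. Fkbp5, a chaperone that restrains the receptor, stood at 109, 36.6 and 33.6 CPM in controls 1 to 3 and at 154, 184 and 209.8 CPM in the SN-011 hearts (log2 fold change 1.61, adjusted p = 0.0876). Tsc22d3, which encodes the anti-inflammatory protein GILZ, stood at 228, 179.6 and 116 CPM in the control hearts and 338, 433 and 452 CPM in the SN-011 hearts (log2 fold change 1.23, adjusted p = 0.0543). In Per1 the groups overlapped, at 198, 132 and 40.6 CPM in the control hearts and 178, 192 and 245 CPM in the SN-011 hearts (log2 fold change 0.73, adjusted p = 0.366). Lcn2 and Hif3a had log2 fold changes of 1.49 and 1.55. Control replicate 1 was the highest control heart for Fkbp5, Tsc22d3, Per1, Lcn2, Hif3a and Mt1. Without it, 11 of the 21 genes rose, 1 fell and the median was 1.45, and without control replicate 2, 4 rose and the median was 1.11. Without one of the other 4 hearts, 0 to 2 rose.

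The circadian clock runs on a loop of activators (Arntl, Clock) and repressors (Per, Cry, Nr1d1), and its output depends on the hour at which tissue is taken, which is not given in the sources used here. Of 19 clock genes, 2 rose (Nfil3 among them) and 1 fell (Nr1d1), and the median was 0.20. Nfil3, a repressor of clock output genes, stood at 20.03, 17.1 and 17.3 CPM in the control hearts and 44.9, 51.8 and 40.8 CPM in the SN-011 hearts (ENSMUSG00000056749, chromosome 13, 52967209 to 52981073; log2 fold change 1.33, standard error 0.14, adjusted p = 0.00934). Nr1d1, the haem-sensing repressor REV-ERBα, stood at 86.2, 94.6 and 55.4 CPM in the control hearts and 35.8, 37.02 and 23.3 CPM in the SN-011 hearts (ENSMUSG00000020889, chromosome 11, 98767932 to 98775333; log2 fold change −1.30, standard error 0.23, adjusted p = 0.0444). It overlaps Thra on the other strand, as Sult1a1 does Sgf29, and it is not clear that the counting used strand, so reads of such pairs may not be told apart. Of the 137 called genes, 51 overlap another gene on the other strand. Among them are Bnip3, Herpud1, Mlxipl, Pfkfb2, Ccnd1, Shld1 and Glul. The pseudogene Gm18258, which overlaps Bnip3, is itself called higher, so the calls may count some reads more than once. Per2 was higher in every SN-011 heart at 13.7, 13.9 and 5.35 CPM in the control hearts and 21.02, 26.2 and 54.2 CPM in the SN-011 hearts (log2 fold change 1.63, adjusted p = 0.0897), whereas Dbp (log2 fold change −1.08, adjusted p = 0.269) and Arntl (log2 fold change 0.20, adjusted p = 0.746) overlapped between the groups. Cry1 and Rora were higher at unadjusted p-values under 0.05, with log2 fold changes of 0.86 and 0.47. Clock genes higher at that p numbered 7 without control replicate 1 (2 called higher and 0 lower), 7 without control replicate 2 and 5 to 6 without one of the others (0 to 1 called higher and 0 to 1 lower), with medians from 0.09 to 0.48.

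FoxO factors are held in the cytosol by insulin signalling and, once in the nucleus, switch on ubiquitin ligases and autophagy genes. Of 23 targets and atrophy genes, 3 rose (Trim63, Klf15 and Sesn1) and 0 fell, with 10 higher and 1 lower at an unadjusted p under 0.05 and a median of 0.36. Trim63, the muscle ubiquitin ligase MuRF1, stood at 111, 158 and 98.4 CPM in the control hearts and 292, 355 and 264 CPM in the SN-011 hearts (ENSMUSG00000028834, chromosome 4, 134315120 to 134329629; log2 fold change 1.31, standard error 0.20, adjusted p = 0.0281). Sesn1, sestrin 1, which restrains mTORC1 and is also a p53 target, stood at 103, 104 and 90.1 CPM in the control hearts and 199.9, 243 and 219 CPM in the SN-011 hearts (ENSMUSG00000038332, chromosome 10, 41809935 to 41908424; log2 fold change 1.16, standard error 0.12, adjusted p = 0.0111). Klf15, a transcription factor of amino acid and lipid use that counts in 3 of the lists, stood at 39.1, 31.2 and 27.6 CPM in the control hearts and 70.9, 84.9 and 76.2 CPM in the SN-011 hearts (ENSMUSG00000030087, chromosome 6, 90462576 to 90475238; log2 fold change 1.25, standard error 0.15, adjusted p = 0.0182). Irs2, the insulin receptor substrate that FoxO induces, lay just outside the adjusted threshold. It stood at 18.9, 33.1 and 10.6 CPM in the control hearts and 63.1, 61.7 and 77.1 CPM in the SN-011 hearts (log2 fold change 1.70, adjusted p = 0.0546). The second muscle ligase Fbxo32 (log2 fold change 0.62, adjusted p = 0.113) did not pass, and Txnip (log2 fold change 0.17, adjusted p = 0.506) overlapped between the groups. The 10 FoxO target and atrophy genes higher at an unadjusted p became 9 without control replicate 1, 15 without control replicate 2 (6 called) and 9 to 13 without one of the others (0 to 2 called).

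Autophagy delivers cytoplasm and organelles to lysosomes. Of 27 genes, 3 rose (Bnip3, Gabarapl1 and Atg13), 0 fell and 15 were higher at an unadjusted p under 0.05, and the median was 0.29. Bnip3, which marks mitochondria for removal and is also induced by hypoxia, stood at 64.5, 76.3 and 56.00 CPM in the control hearts and 229.6, 187 and 173 CPM in the SN-011 hearts (ENSMUSG00000078566, chromosome 7, 138890836 to 138909519; log2 fold change 1.58, standard error 0.16, adjusted p = 0.00894). Gabarapl1, a ubiquitin-like protein of the autophagosome membrane, stood at 88.7, 119.6 and 85.5 CPM in the control hearts and 202, 259.5 and 199.7 CPM in the SN-011 hearts (ENSMUSG00000030161, chromosome 6, 129533160 to 129542346; log2 fold change 1.17, standard error 0.17, adjusted p = 0.0281). Atg13, of the complex that starts the autophagosome, stood at 121, 108 and 88.1 CPM in the control hearts and 197, 223 and 184 CPM in the SN-011 hearts (ENSMUSG00000027244, chromosome 2, 91674618 to 91710576; log2 fold change 0.93, standard error 0.15, adjusted p = 0.0307). Map1lc3b (log2 fold change 0.52, adjusted p = 0.101) and the cargo receptor Sqstm1 (log2 fold change 0.50, adjusted p = 0.131) were higher without overlap but did not pass. Ulk1, the kinase upstream of ATG13, had a log2 fold change of 0.66 (adjusted p = 0.0546). The 15 higher at an unadjusted p became 11 without control replicate 1, 16 without control replicate 2 (6 called) and 10 to 12 without one of the others (0 to 1 called), with medians from 0.23 to 0.45.

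The nuclear genes of the respiratory chain shared one direction. Complex I passes electrons from NADH to ubiquinone, and complexes II to V carry them to oxygen and make ATP. All 37 nuclear complex I genes had a positive log2 fold change, from 0.19 to 0.63 with a median of 0.50. At an unadjusted p under 0.05, 36 of them were higher, and in 32 the groups did not overlap. None passed the adjusted threshold of edgeR's quasi-likelihood test (0 of 37), while DESeq2's Wald test, which called 1361 genes in all, called 27 of them. All 40 genes of complexes II to V were positive too, from 0.10 to 0.64 with a median of 0.49, and 31 were higher at an unadjusted p under 0.05, 0 after adjustment and 22 with DESeq2.

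By sample, the summed complex I genes were 7539.7, 9608 and 7154 CPM in the control hearts and 11268, 12439 and 10681 CPM in the SN-011 hearts. Ndufb7, a complex I subunit, stood at 246, 289 and 222 CPM in the control hearts and 353, 447 and 373 CPM in the SN-011 hearts (log2 fold change 0.63, adjusted p = 0.0781). Atp5o, a stalk subunit of ATP synthase, stood at 335, 435 and 323 CPM in the control hearts and 548, 615 and 515 CPM in the SN-011 hearts (log2 fold change 0.62, adjusted p = 0.0864). The 13 protein genes of the mitochondrial genome had mixed signs: 9 were positive and 4 negative, 0 passed an unadjusted p under 0.05, and mt-Nd1 stood at 10376, 13034 and 12890.3 CPM in the control hearts and 17336, 14930.0 and 11669.9 CPM in the SN-011 hearts (log2 fold change 0.28, adjusted p = 0.505). Without control replicate 1, 25 of 37 complex I genes were higher at an unadjusted p under 0.05 with a median of 0.45. Without control replicate 2, 25 of them passed the adjusted threshold and the median was 0.66. Without one of the other 4 hearts, 23 to 34 complex I genes were higher at an unadjusted p and 0 passed. The mitochondrial genome list had a median of 0.22, and of −0.01 without control replicate 1. For complexes II to V the genes higher at an unadjusted p numbered 16 without control replicate 1, 39 without control replicate 2 (19 called) and 13 to 33 without one of the others.

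Beside these groups, the 16 markers of working cardiomyocytes summed to 48678 to 68543 CPM in the control hearts and 70127 to 79484 CPM in the SN-011 hearts, without overlap. Their median log2 fold change was 0.41, and their part in the values of the muscle and mitochondrial genes was not tested. Markers higher at an unadjusted p under 0.05 were 7, and they numbered 3 without control replicate 1, 11 without control replicate 2 (1 called) and 0 to 5 without one of the others, with medians from 0.26 to 0.53.

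Fatty acids enter the cell through Cd36, the mitochondria through Cpt1b, and are then oxidised. Of 27 genes of uptake and oxidation, 26 were positive, 10 higher at an unadjusted p under 0.05 and 0 after adjustment, with a median of 0.37. Cpt1b stood at 5.71, 7.53 and 4.71 CPM in the control hearts and 13.97, 9.14 and 15.1 CPM in the SN-011 hearts (log2 fold change 1.10, adjusted p = 0.0767). Cd36 did not overlap between the groups either, at 981, 973 and 683 CPM in the control hearts and 1456, 1098 and 1034 CPM in the SN-011 hearts (log2 fold change 0.44, adjusted p = 0.226). Acot1, an acyl-CoA thioesterase with a near-identical neighbour, had a log2 fold change of 1.22 (adjusted p = 0.108), and Slc27a1, a fatty acid transporter, one of 0.78. The count at an unadjusted p was 8 without control replicate 1, 23 without control replicate 2 (4 called) and 6 to 14 without one of the others, with medians from 0.23 to 0.57.

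PPAR factors are fatty acid sensors that induce these enzymes. Of 25 PPAR targets tested, 1 rose (Lpin1), 13 were higher and 1 lower at an unadjusted p under 0.05, and the median was 0.44. Lpin1, a phosphatidate phosphatase that also coactivates PPARα, stood at 83.6, 78.3 and 66.3 CPM in the control hearts and 142, 146 and 116 CPM in the SN-011 hearts (ENSMUSG00000020593, chromosome 12, 16535669 to 16610966; log2 fold change 0.82, standard error 0.14, adjusted p = 0.0383). Pdk4, the kinase that shuts pyruvate dehydrogenase, had the lowest control heart far from the others, at 995, 849 and 248 CPM in the control hearts and 2432, 1823 and 1525 CPM in the SN-011 hearts (log2 fold change 1.47, adjusted p = 0.113). Ucp3, a mitochondrial carrier protein, did not pass (log2 fold change 0.94, adjusted p = 0.092), and Angptl4 (log2 fold change 0.39, adjusted p = 0.425) overlapped between the groups. Of 19 genes of triglyceride storage and breakdown, 14 were higher at an unadjusted p under 0.05, 0 lower, and 1 passed after adjustment (Lpin1), with a median of 0.54. Pnpla2, the lipase that opens triglyceride breakdown, stood at 579, 593 and 398 CPM in the control hearts and 1066, 1079 and 797 CPM in the SN-011 hearts (log2 fold change 0.91, adjusted p = 0.067). Plin4, a coat protein of lipid droplets, stood at 271, 208 and 114 CPM in the control hearts and 409.7, 440.5 and 457 CPM in the SN-011 hearts (log2 fold change 1.14, adjusted p = 0.0765). With a heart left out, the higher PPAR targets at an unadjusted p numbered 13 without control replicate 1 (2 called), 16 without control replicate 2 (4 called) and 9 to 12 without one of the others (0 called). The triglyceride genes numbered 13 without control replicate 1 (2 called), 15 without control replicate 2 (3 called) and 11 to 13 without one of the others (0 called).

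Of 23 genes of glycolysis and glucose uptake, 1 rose (Pfkfb2), 11 were higher at an unadjusted p under 0.05 and 0 lower, with a median of 0.33. Pfkfb2, the heart enzyme that makes the activator of phosphofructokinase, stood at 34.9, 48.6 and 45.2 CPM in the control hearts and 81.8, 76.6 and 84.2 CPM in the SN-011 hearts (ENSMUSG00000026409, chromosome 1, 130689182 to 130729253; log2 fold change 0.91, standard error 0.14, adjusted p = 0.0281). The insulin-responsive transporter Slc2a4 (log2 fold change 0.45, adjusted p = 0.0986) was higher without overlap, whereas Hk2 (log2 fold change 0.09, adjusted p = 0.697) overlapped and was negative under library size scaling. Of 29 genes of pyruvate dehydrogenase and the Krebs cycle, 12 were higher and 1 lower at an unadjusted p under 0.05, 0 after adjustment, with a median of 0.30; the groups overlapped in citrate synthase, Cs (log2 fold change 0.20, adjusted p = 0.524). The medians were 0.23 over 16 glycogen genes (5 higher at an unadjusted p under 0.05), 0.26 over 8 ketone body genes (3 higher) and 0.27 over 20 genes of branched-chain amino acid breakdown (6 higher, Klf15 among them called). Gys1, muscle glycogen synthase, had a log2 fold change of 0.83 (adjusted p = 0.0767), Bdh1, which oxidises ketone bodies, one of 1.05 (adjusted p = 0.0838), and Bcat2, the first enzyme of branched-chain breakdown, one of 0.47 (adjusted p = 0.104). Glycolysis genes higher at an unadjusted p numbered 13 without control replicate 1, 13 without control replicate 2 (3 called) and 8 to 11 without one of the others (0 called), with medians from 0.21 to 0.39. Krebs cycle genes numbered 6 without control replicate 1 (0 called higher and 1 lower), 20 without control replicate 2 (3 called) and 5 to 16 without one of the others, with medians from 0.24 to 0.47. The glycogen count was 4 without control replicate 1 (1 called), 8 without control replicate 2 (1 called) and 2 to 4 without one of the others, with medians from 0.15 to 0.38. The ketone body count was 2 without control replicate 1, 5 without control replicate 2 (1 called) and 1 to 4 without one of the others, with medians from 0.20 to 0.39. For branched-chain breakdown it was 2 without control replicate 1, 14 without control replicate 2 (2 called) and 3 to 8 without one of the others (0 to 1 called).

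Ppargc1a, the coactivator PGC-1α that drives the making of mitochondria, stood at 83.5, 52.4 and 52.3 CPM in the control hearts and 145, 109.7 and 98.1 CPM in the SN-011 hearts (log2 fold change 0.91, adjusted p = 0.0776). It was the leading uncalled member of 24 genes of mitochondrial biogenesis and dynamics, of which Bnip3 alone rose, 9 were higher at an unadjusted p under 0.05 and 0 lower (median 0.22). In creatine metabolism, which shuttles phosphate between mitochondria and myofibrils, 4 of 10 genes were higher and 1 lower at an unadjusted p under 0.05. Ckmt2, mitochondrial creatine kinase, stood at 1176, 1374 and 1178 CPM in the control hearts and 1884, 1707 and 1635 CPM in the SN-011 hearts (log2 fold change 0.49, adjusted p = 0.116). Gatm, the first enzyme of creatine synthesis, ran the other way at 27.5, 23.1 and 34.1 CPM in the control hearts and 9.07, 8.55 and 19.4 CPM in the SN-011 hearts (log2 fold change −1.20, adjusted p = 0.0882). Biogenesis genes higher at an unadjusted p numbered 7 without control replicate 1 (2 called), 11 without control replicate 2 and 4 to 7 without one of the others (0 to 1 called), with medians from 0.14 to 0.29. Creatine genes higher numbered 3 without control replicate 1, 4 without control replicate 2 (1 called) and 3 without one of the others, with medians from 0.08 to 0.34.

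**Figure D3:**
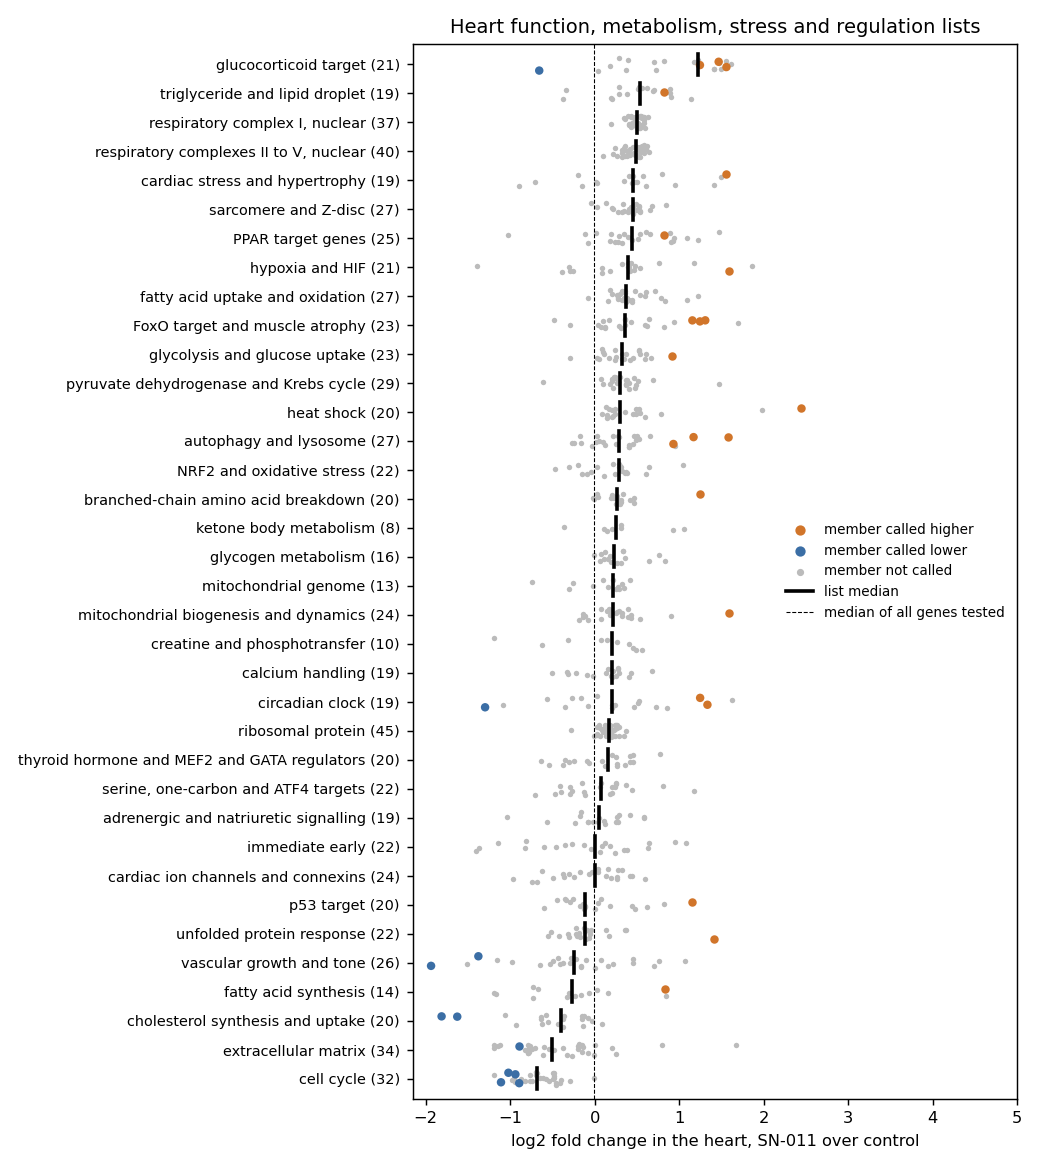
Log2 fold changes in the heart of the members of 36 lists of heart function, metabolism, stress and regulation, ordered by list median (black bar), with the number tested in brackets. Orange and blue points passed the adjusted threshold and the dashed line is the median of all genes, −0.01. The glucocorticoid targets stand at the top and the cell cycle genes at the bottom.

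Cholesterol genes were mostly negative. Their transcription is driven by SREBP2 when sterols are low. Of 20 genes tested, 2 fell, 10 were lower at an unadjusted p under 0.05, 0 were higher and 19 of 20 were negative, with a median of −0.40. Sqle, squalene epoxidase, stood at 6.31, 7.18 and 7.06 CPM in the control hearts and 2.42, 4.28 and 3.15 CPM in the SN-011 hearts (log2 fold change −1.06, adjusted p = 0.0863). Hmgcs1, an early enzyme of the pathway, was lower by less (log2 fold change −0.43, adjusted p = 0.194), and Srebf2 itself had a log2 fold change of −0.63. Fatty acid synthesis split: Mlxipl, the glucose-sensing factor ChREBP, rose from 21.3, 20.6 and 26.6 to 42.05, 41.3 and 38.8 CPM (ENSMUSG00000005373, chromosome 5, 135089890 to 135138382; log2 fold change 0.83, standard error 0.13, adjusted p = 0.0332), while 3 of 14 genes were lower at an unadjusted p under 0.05. Scd1 stood at 21.4, 9.74 and 322 CPM in the control hearts and 12.6, 139 and 5.298 CPM in the SN-011 hearts and Fasn at 51.4, 57.8 and 164 CPM in the control hearts and 38.9, 79.7 and 45.97 CPM in the SN-011 hearts, with wide overlap (log2 fold change −1.17, adjusted p = 0.646 and log2 fold change −0.73, adjusted p = 0.358). The same control heart, replicate 3, was the highest in both. Without it the log2 fold change was 1.73 for Scd1 and 0.0018 for Fasn. Cholesterol genes lower at an unadjusted p numbered 10 without control replicate 1, 9 without control replicate 2 and 6 to 9 without one of the others (0 called). Those of fatty acid synthesis lower at that p numbered 3 without control replicate 1 (0 called lower and 0 higher), 4 without control replicate 2 (1 called lower and 1 higher) and 2 to 3 without one of the others (0 called lower and 0 to 1 higher), with medians from −0.40 to 0.01.

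Sarcomere genes were mostly positive and 0 of 27 passed adjustment. Of the 27, 26 were positive, the range being −0.04 to 0.84, and 13 higher at an unadjusted p under 0.05, 0 lower, with a median of 0.45. Among 16 working cardiomyocyte markers, Tnnt2, cardiac troponin T, stood at 6550.3, 7909 and 5815 CPM in the control hearts and 9413, 10394 and 9693 CPM in the SN-011 hearts (log2 fold change 0.54, adjusted p = 0.155). Tnni3, cardiac troponin I, stood at 3339.8, 3549.7 and 2881 CPM in the control hearts and 4582, 5258 and 4379 CPM in the SN-011 hearts (log2 fold change 0.54, adjusted p = 0.127). Myh7, the slow myosin that rises with strain in rodents, was higher without overlap (log2 fold change 0.46, adjusted p = 0.234), whereas Myh6 (log2 fold change 0.32, adjusted p = 0.457) and the stress gene Ankrd1 (log2 fold change 0.02, adjusted p = 0.967) overlapped, the last turning negative with library sizes alone. Lmod2, which sets thin filament length, had a log2 fold change of 0.84. Sarcomere genes higher at an unadjusted p numbered 11 without control replicate 1, 17 without control replicate 2 (2 called) and 4 to 11 without one of the others.

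Calcium release and uptake drive each beat. Of 19 calcium genes, 3 were higher and 1 lower at an unadjusted p under 0.05, with a median of 0.20. The release channel Ryr2 stood at 531, 612 and 436 CPM in the control hearts and 740.5, 698 and 648 CPM in the SN-011 hearts (log2 fold change 0.40, adjusted p = 0.177), and the pump Atp2a2 (log2 fold change 0.16, adjusted p = 0.709) and its brake Pln (log2 fold change 0.21, adjusted p = 0.462) overlapped between groups. The 24 ion channels and connexins had a median of 0.01, with 2 higher and 4 lower at an unadjusted p under 0.05. Kcnd2, a channel of early repolarisation, stood at 11.9, 16.2 and 10.96 CPM in the control hearts and 8.598, 8.09 and 7.57 CPM in the SN-011 hearts (log2 fold change −0.68, adjusted p = 0.107). Gja1, connexin 43, overlapped through control replicate 1, at 141, 358 and 299 CPM in the control hearts and 158, 121 and 130.3 CPM in the SN-011 hearts (log2 fold change −0.96, adjusted p = 0.118). The channel subunit Kcnip2 overlapped (log2 fold change 0.27, adjusted p = 0.621). Adrb1, the main β-adrenergic receptor of the heart, stood at 15.2, 24.9 and 17.7 CPM in the control hearts and 9.74, 8.94 and 9.46 CPM in the SN-011 hearts (log2 fold change −1.03, adjusted p = 0.0543), just outside the threshold, and the 19 adrenergic and natriuretic genes had a median of 0.05. Calcium genes higher at an unadjusted p numbered 2 without control replicate 1, 6 without control replicate 2 (1 called) and 1 to 3 without one of the others, with medians from 0.07 to 0.30. Ion channel genes lower numbered 6 without control replicate 1 (1 called), 5 without control replicate 2 (1 called lower and 1 higher) and 3 to 4 without one of the others, with medians from −0.09 to 0.11. The 3 adrenergic and natriuretic genes higher at that p became 1 without control replicate 1 (0 called higher and 1 lower), 4 without control replicate 2 (1 called higher and 1 lower) and 1 to 3 without one of the others, with medians from 0.02 to 0.12.

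Of 19 genes of cardiac stress and hypertrophy tested, Mt1 alone rose, and 7 were higher and 1 lower at an unadjusted p under 0.05 (median 0.46). Nppb, the B-type natriuretic peptide released under wall stress, stood at 352, 443 and 280.1 CPM in the control hearts and 800.1, 679.7 and 589 CPM in the SN-011 hearts (log2 fold change 0.95, adjusted p = 0.0587). Nppa, the atrial peptide, overlapped at 761, 1669.5 and 1091 CPM in the control hearts and 2019, 2254 and 978 CPM in the SN-011 hearts (log2 fold change 0.58, adjusted p = 0.366). The sum of 10 atrial markers, Nppa among them, ran from 1504 to 3852 CPM among controls and 1249 to 4664 among SN-011 hearts, with Myl7 at 73.6, 666 and 353 CPM in the control hearts and 449, 628 and 39.8 CPM in the SN-011 hearts and Sln at 32.5, 199 and 96.6 CPM in the control hearts and 125, 238 and 14.1 CPM in the SN-011 hearts (log2 fold changes 0.03 and 0.20, of changing sign between fits). The atrial sums thus differed more within each group than between the groups. Of the transcription factors of the heart, Nkx2-5 (log2 fold change 0.36, adjusted p = 0.194) was higher without overlap, and Gata4 (log2 fold change −0.31, adjusted p = 0.283) and Mef2c (log2 fold change −0.35, adjusted p = 0.194) overlapped. The median over 20 regulators was 0.16. Cardiac stress genes higher at an unadjusted p numbered 7 without control replicate 1 (4 called), 10 without control replicate 2 (3 called) and 6 to 7 without one of the others (0 called), with medians from 0.25 to 0.60. The 5 regulators higher at that p became 4 without control replicate 1, 6 without control replicate 2 and 1 to 4 without one of the others, with medians from 0.00 to 0.30.

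All 20 heat shock genes were positive, from 0.09 to 2.45, with 9 higher at an unadjusted p under 0.05 and Hspa1a the one that rose. Hspb1, a small chaperone, stood at 434, 373 and 328 CPM in the control hearts and 532, 659 and 763 CPM in the SN-011 hearts (log2 fold change 0.78, adjusted p = 0.0688), and Hspa8 had a log2 fold change of 0.54. Of the unfolded protein response, 17 of 22 genes were negative, with a median of −0.12. One member rose, Herpud1, which helps clear misfolded proteins from the endoplasmic reticulum, at 193, 197 and 122 CPM in the control hearts and 402, 468 and 491 CPM in the SN-011 hearts (ENSMUSG00000031770, chromosome 8, 94386438 to 94395377; log2 fold change 1.41, standard error 0.19, adjusted p = 0.0275). The main chaperone of that compartment, Hspa5, overlapped at 407, 353 and 392 CPM in the control hearts and 370.0, 331 and 369 CPM in the SN-011 hearts (log2 fold change −0.11, adjusted p = 0.65). Heat shock genes higher at an unadjusted p numbered 8 without control replicate 1 (0 called), 7 without control replicate 2 and 6 to 10 without one of the others (0 called). For the unfolded protein response, those lower were 3 and became 3 without control replicate 1, 5 without control replicate 2 and 1 to 8 without one of the others (0 called lower and 0 to 1 higher), with medians from −0.19 to −0.10.

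Of 21 hypoxia genes, Bnip3 rose and 12 were higher and 1 lower at an unadjusted p under 0.05 (median 0.40). Vegfa, the growth factor of blood vessels, stood at 198, 237 and 245 CPM in the control hearts and 391, 315 and 448 CPM in the SN-011 hearts (log2 fold change 0.76, adjusted p = 0.0624), and Egln3 had a log2 fold change of 0.46. Of 22 NRF2 and oxidative stress genes, 4 were higher at an unadjusted p under 0.05, led by Gsta3 (log2 fold change 1.04, adjusted p = 0.0543), whereas the defining targets Nqo1 (log2 fold change −0.09, adjusted p = 0.774) and Hmox1 (log2 fold change −0.14, adjusted p = 0.664) overlapped. Cdkn1a, the cell cycle inhibitor p21, was higher without overlap at 254, 142 and 111 CPM in the control hearts and 296, 288 and 312 CPM in the SN-011 hearts (log2 fold change 0.82, adjusted p = 0.128), but of 20 p53 targets only Sesn1 passed and 11 of 20 were negative. The 22 serine, one-carbon and ATF4 targets had a median of 0.07, with Asns (log2 fold change −0.16, adjusted p = 0.584) and Ddit4 (log2 fold change 1.17, adjusted p = 0.148) overlapping. Immediate early genes went both ways, 4 higher and 4 lower of 22 at an unadjusted p under 0.05. Egr1 (log2 fold change −1.36, adjusted p = 0.0918) and Fos (log2 fold change −0.82, adjusted p = 0.127) were negative and Maff (log2 fold change 1.08, adjusted p = 0.0543) positive. Of 45 ribosomal protein genes, 43 were positive with a median of 0.17, and 1 was higher at an unadjusted p under 0.05. Hypoxia genes higher at an unadjusted p numbered 12 without control replicate 1, 12 without control replicate 2 (3 called) and 9 to 10 without one of the others (0 to 1 called). NRF2 genes higher numbered 5 without control replicate 1, 9 without control replicate 2 (1 called) and 3 to 7 without one of the others (0 to 1 called). The p53 targets higher were 4 and became 4 without control replicate 1 (2 called), 4 without control replicate 2 (2 called) and 3 to 4 without one of the others (0 to 1 called), with medians from −0.22 to −0.02. Immediate early genes higher numbered 3 without control replicate 1 (1 called higher and 1 lower), 8 without control replicate 2 (5 called higher and 1 lower) and 3 without one of the others (0 called higher and 0 to 1 lower), with medians from −0.18 to 0.28. The ribosomal count was 1 without control replicate 1, 0 without control replicate 2 and 0 to 7 without one of the others, with medians from 0.10 to 0.25, and of the serine, one-carbon and ATF4 targets 4 were higher, becoming 4 without control replicate 1, 5 without control replicate 2 (1 called) and 1 to 4 without one of the others, with medians from −0.02 to 0.11.

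All 32 cell cycle genes were negative, 28 were lower at an unadjusted p under 0.05, 26 lay wholly below the control hearts, and 4 fell after adjustment (Top2a, Ccnd1, Mcm2 and Mcm4), with a median of −0.69. The summed list was 882, 841 and 931 CPM in the control hearts and 601, 565 and 608 CPM in the SN-011 hearts. Top2a, the topoisomerase of dividing cells, stood at 45.6, 34.7 and 44.8 CPM in the control hearts and 21.9, 20.6 and 19.2 CPM in the SN-011 hearts (ENSMUSG00000020914, chromosome 11, 98992943 to 99024189; log2 fold change −1.02, standard error 0.14, adjusted p = 0.0275). Ccnd1, the cyclin D1 of the G1 phase, stood at 76.7, 59.7 and 71.4 CPM in the control hearts and 39.7, 31.2 and 37.6 CPM in the SN-011 hearts (ENSMUSG00000070348, chromosome 7, 144929931 to 144939925; log2 fold change −0.94, standard error 0.14, adjusted p = 0.0281). Mcm2 and Mcm4 encode parts of the replicative helicase. Mcm2 stood at 20.5, 27.00 and 27.6 CPM in the control hearts and 13.4, 13.5 and 13.5 CPM in the SN-011 hearts (ENSMUSG00000002870, chromosome 6, 88883474 to 88898780; log2 fold change −0.89, standard error 0.15, adjusted p = 0.0402). Mcm4 stood at 15.7, 15.7 and 22.5 CPM in the control hearts and 7.99, 8.68 and 8.32 CPM in the SN-011 hearts (ENSMUSG00000022673, chromosome 16, 15623897 to 15637400; log2 fold change −1.11, standard error 0.19, adjusted p = 0.0383). Mki67 was lower in every SN-011 heart (log2 fold change −0.61, adjusted p = 0.114). Outside the list, Rrm1, a subunit of ribonucleotide reductase, and Smc2, a condensin subunit, fell too (log2 fold changes −0.74 and −0.99, both named after their values were seen). The count was 4 without control replicate 1 and 9 without control replicate 2. Without one of the other 4 hearts 0 fell, and 20 to 26 were lower at an unadjusted p.

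The extracellular matrix of the heart is made mainly by fibroblasts. Of 34 matrix genes, 1 fell (Lum), 17 were lower and 2 higher at an unadjusted p under 0.05, and the median was −0.51. Lum, the small proteoglycan lumican, which orders collagen fibrils, stood at 109.7, 97.03 and 68.5 CPM in the control hearts and 48.8, 48.8 and 50.1 CPM in the SN-011 hearts (ENSMUSG00000036446, chromosome 10, 97565128 to 97572703; log2 fold change −0.90, standard error 0.16, adjusted p = 0.0481). Its relative Fmod, fibromodulin, fell as well, from 17.5 ± 0.971 to 8.805 ± 1.84 CPM (log2 fold change −0.99, named after its values were seen). The fibrillar collagen genes Col3a1 and Col1a1 were lower in every SN-011 heart than in any control heart. Col3a1 stood at 1141, 698 and 746 CPM in the control hearts and 310.3, 337 and 488 CPM in the SN-011 hearts (log2 fold change −1.19, adjusted p = 0.0565). Col1a1 stood at 899.5, 533 and 531 CPM in the control hearts and 330.5, 336 and 482 CPM in the SN-011 hearts (log2 fold change −0.77, adjusted p = 0.123). Control replicate 1 was the highest heart for both. Without it, 15 matrix genes were lower at an unadjusted p under 0.05, 0 fell and 2 rose after adjustment, and the median was −0.30. Without control replicate 2, 10 fell. Without SN-011 replicate 1, 2 or 3, 0 fell.

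Fibroblast markers summed to 4059.7 to 4961 CPM in the control and 3225 to 3385 CPM in the SN-011 hearts, without overlap; their part in the matrix values was not tested. Of 13, Lum fell and 6 were lower and 2 higher at an unadjusted p under 0.05. Pdgfra, the receptor that defines cardiac fibroblasts, overlapped at 66.4, 41.9 and 54.8 CPM in the control hearts and 44.9, 39.98 and 33.99 CPM in the SN-011 hearts (log2 fold change −0.46, adjusted p = 0.177), and so did decorin, Dcn, at 563, 593 and 659.9 CPM in the control hearts and 691, 582 and 449 CPM in the SN-011 hearts (log2 fold change −0.08, adjusted p = 0.834). Fibroblast markers lower at an unadjusted p numbered 5 without control replicate 1 (0 called lower and 1 higher), 6 without control replicate 2 (3 called) and 5 to 6 without one of the others (0 to 1 called).

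Vascular genes held the apelin pair. Apelin and its receptor act on the tone and growth of vessels and on contraction. Apln, the ligand, stood at 15.6, 12.3 and 21.8 CPM in the control hearts and 7.12, 4.87 and 7.19 CPM in the SN-011 hearts (ENSMUSG00000037010, chromosome X, 48025146 to 48034853; log2 fold change −1.38, standard error 0.25, adjusted p = 0.0489). Its receptor Aplnr fell too (values above), and these were the 2 of 26 vascular genes that fell, with 7 lower and 5 higher at an unadjusted p under 0.05. Ednra, an endothelin receptor, and Hey1, a Notch target, had log2 fold changes of 0.70 and 1.07 (adjusted p = 0.0688 and 0.0735). Endothelin 1 (Edn1, log2 fold change 0.00, adjusted p = 1) and the adhesion genes Vcam1 (log2 fold change −0.37, adjusted p = 0.255) and Icam1 (log2 fold change −0.53, adjusted p = 0.119) overlapped between the groups. The endothelial markers Pecam1 (236 to 311 CPM in the control hearts and 255 to 286 CPM in the SN-011 hearts) and Cdh5 (229.5 to 249 CPM in the control hearts and 172 to 229 CPM in the SN-011 hearts) had adjusted p-values of 0.979 and 0.398. Vascular genes lower at an unadjusted p numbered 7 without control replicate 1 (1 called), 7 without control replicate 2 (4 called lower and 3 higher) and 5 to 8 without one of the others (0 called), with medians from −0.30 to −0.13.

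Interferon-induced GTPases and chemokines were mostly lower. All 17 GTPases of the GBP and IRG families, which attack vacuoles of pathogens, were negative; 2 fell (Gbp5 and Iigp1) and 13 were lower at an unadjusted p under 0.05, with a median of −0.62. Iigp1 stood at 676, 827 and 861 CPM in the control hearts and 347, 335 and 474 CPM in the SN-011 hearts (ENSMUSG00000054072, chromosome 18, 60376027 to 60392634; log2 fold change −1.03, standard error 0.18, adjusted p = 0.0403). Gbp5 stood at 89.5, 79.1 and 125 CPM in the control hearts and 41.4, 35.8 and 56.00 CPM in the SN-011 hearts (ENSMUSG00000105504, chromosome 3, 142493978 to 142522344; log2 fold change −1.14, standard error 0.21, adjusted p = 0.0481). Members of these families are close in sequence and reads may be split between them. Of 28 antiviral effectors, 1 fell (Trim21), 17 were lower at an unadjusted p under 0.05, 0 were higher and the median was −0.54. Trim21, an Fc receptor and ubiquitin ligase of the cytosol, stood at 41.9, 39.9 and 51.4 CPM in the control hearts and 26.3, 23.3 and 25.7 CPM in the SN-011 hearts (ENSMUSG00000030966, chromosome 7, 102557921 to 102565486; log2 fold change −0.82, standard error 0.13, adjusted p = 0.0357). Mx1 was lower without overlap (log2 fold change −1.05, adjusted p = 0.0565), and Zbp1, a sensor of Z-form nucleic acids, overlapped (log2 fold change −0.66, adjusted p = 0.137). GBP and IRG genes lower at an unadjusted p numbered 11 without control replicate 1 (1 called), 14 without control replicate 2 (5 called) and 8 to 15 without one of the others (0 called). Antiviral effectors numbered 17 without control replicate 1, 18 without control replicate 2 (4 called) and 9 to 25 without one of the others (0 called).

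Of 29 genes of nucleic acid sensing and interferon signalling, 13 were lower and 1 higher at an unadjusted p under 0.05 and 0 after adjustment (median −0.39). Socs3, a feedback inhibitor of cytokine receptors, led them at 26.3, 23.3 and 37.6 CPM in the control hearts and 12.4, 12.2 and 16.4 CPM in the SN-011 hearts (log2 fold change −1.09, adjusted p = 0.0543). Irf7, the factor that amplifies interferon, did not move in one direction, at 1351, 1224 and 1331 CPM in the control hearts and 1112, 1241 and 1550.3 CPM in the SN-011 hearts (log2 fold change 0.00, adjusted p = 0.998). Of 22 chemokines and receptors, 3 fell (Ccl7, Cxcl10 and Cxcl11), 1 rose (Cxcr4) and 13 were lower at an unadjusted p under 0.05 (median −0.65). Cxcl11, annotated as a polymorphic pseudogene, stood at 11.3, 8.22 and 12.9 CPM in the control hearts and 1.48, 1.64 and 3.85 CPM in the SN-011 hearts (ENSMUSG00000060183, chromosome 5, 92359544 to 92365485; log2 fold change −2.21, standard error 0.38, adjusted p = 0.0403). Cxcr4, the receptor of CXCL12, stood at 28.1, 26.4 and 29.9 CPM in the control hearts and 39.8, 52.5 and 57.2 CPM in the SN-011 hearts (ENSMUSG00000045382, chromosome 1, 128588199 to 128592293; log2 fold change 0.82, standard error 0.15, adjusted p = 0.0481). Ccl2, which recruits monocytes like Ccl7, lay just outside the threshold at 22.4, 13.6 and 30.5 CPM in the control hearts and 6.85, 3.75 and 8.51 CPM in the SN-011 hearts (log2 fold change −1.80, adjusted p = 0.0544), and Cxcl9 overlapped (log2 fold change −0.77, adjusted p = 0.161). Cxcl10 and Cxcl11 both overlap Art3 on the other strand. Sensing and signalling genes lower at an unadjusted p numbered 14 without control replicate 1, 12 without control replicate 2 (7 called) and 8 to 13 without one of the others, with medians from −0.48 to −0.20. Chemokine and receptor genes lower at that p numbered 10 without control replicate 1 (2 called lower and 0 higher), 16 without control replicate 2 (8 called lower and 1 higher) and 11 to 14 without one of the others (0 to 1 called).

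All 20 class I genes were negative, 8 lower at an unadjusted p under 0.05, with a median of −0.28; the peptide transporter Tap1 was lower without overlap (log2 fold change −0.66, adjusted p = 0.101), and H2-K1 (log2 fold change −0.12, adjusted p = 0.714) and B2m (log2 fold change −0.13, adjusted p = 0.654) overlapped. All 11 class II genes were negative with a median of −0.40, 1 lower at an unadjusted p under 0.05 (Ciita, log2 fold change −1.09, adjusted p = 0.0882), while H2-Aa (log2 fold change −0.35, adjusted p = 0.404) and Cd74 (log2 fold change −0.24, adjusted p = 0.589) overlapped. Among 20 cytokines and NF-kB targets, Csf1, the growth factor of macrophages, fell with little spread in the controls. It stood at 110.5, 106 and 105 CPM in the control hearts and 59.1, 48.9 and 62.1 CPM in the SN-011 hearts (ENSMUSG00000014599, chromosome 3, 107741048 to 107760469; log2 fold change −0.92, standard error 0.12, adjusted p = 0.0231). Nos2 was lower without overlap (log2 fold change −1.56, adjusted p = 0.0546), and Nfkbia overlapped (log2 fold change −0.12, adjusted p = 0.812). Of 22 cell death genes, Tnfsf10, the death ligand TRAIL, fell. It stood at 52.5, 59.7 and 76.8 CPM in the control hearts and 31.8, 23.4 and 25.8 CPM in the SN-011 hearts (ENSMUSG00000039304, chromosome 3, 27317028 to 27342427; log2 fold change −1.22, standard error 0.17, adjusted p = 0.0281). Mlkl, the pore protein of necroptosis, was lower without overlap (log2 fold change −0.57, adjusted p = 0.106). The 18 complement genes had a median of −0.28, with C3 (log2 fold change −0.41, adjusted p = 0.342) and C4b (log2 fold change −0.26, adjusted p = 0.37) overlapping and Cfb lower at 2.83, 2.07 and 2.73 CPM in the control hearts and 0.873, 1.25 and 1.01 CPM in the SN-011 hearts (log2 fold change −1.28, adjusted p = 0.0922). Class I genes lower at an unadjusted p numbered 4 without control replicate 1, 9 without control replicate 2 (2 called) and 3 to 11 without one of the others. For class II the count was 1 without control replicate 1, 7 without control replicate 2 (1 called) and 1 to 6 without one of the others, with medians from −0.59 to −0.20. The 10 cytokine and NF-kB genes lower at that p became 9 without control replicate 1, 14 without control replicate 2 (4 called) and 6 to 8 without one of the others (0 to 1 called). For cell death genes 7 were lower, which became 5 without control replicate 1 (1 called lower and 1 higher), 11 without control replicate 2 and 3 to 9 without one of the others (0 called), with medians from −0.43 to −0.21. Complement genes lower were 2 and became 2 without control replicate 1, 9 without control replicate 2 (1 called) and 1 to 3 without one of the others, with medians from −0.42 to −0.13.

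**Figure D4:**
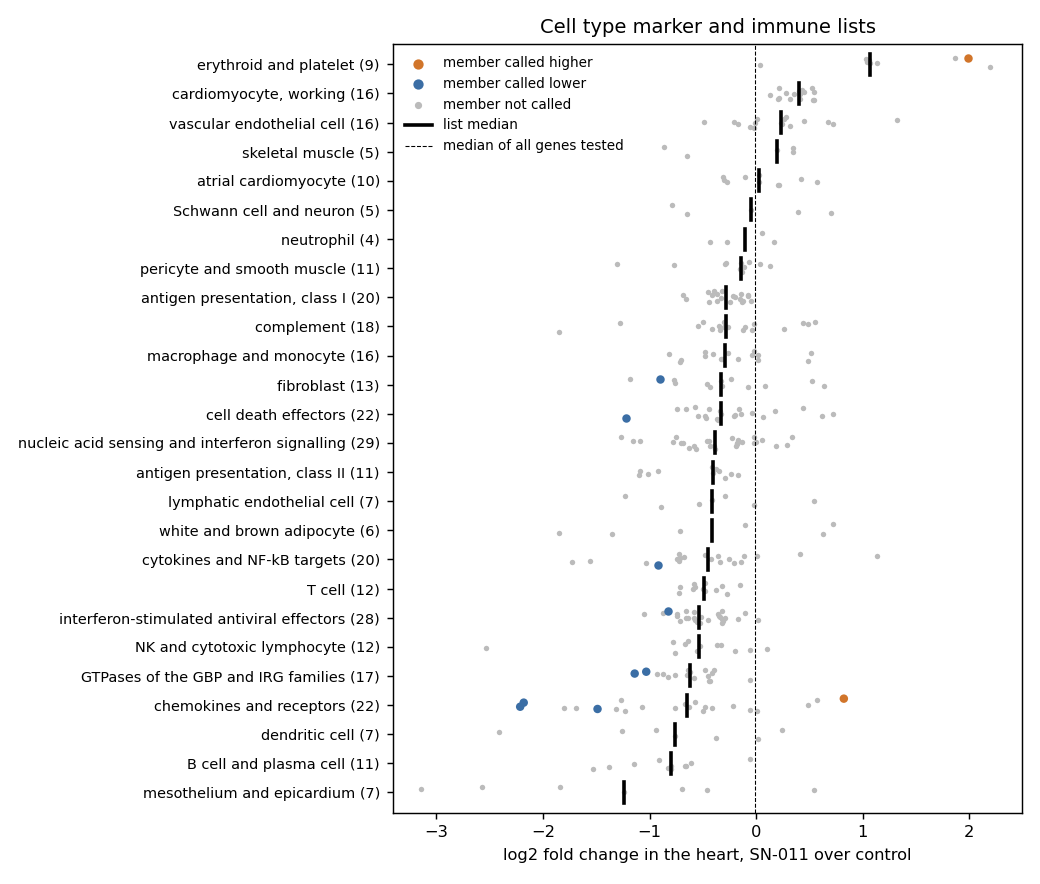
Log2 fold changes in the heart of the members of the cell type marker and immune lists with at least 4 genes tested, ordered by list median (black bar), with the number tested in brackets. Blue and orange points passed the adjusted threshold. All 17 GBP and IRG genes and all 12 T cell markers lie below 0.

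The sums of immune cell markers overlapped between the groups for every list other than mast cells. The mast cell sum was mostly Kit, and the other members were too low to test. That sum stood at 10.4, 9.875 and 13.0 CPM in the control hearts and 5.31, 5.26 and 5.55 CPM in the SN-011 hearts. Macrophage and monocyte markers summed to 2455 to 3222 CPM in control and 2294 to 3154 CPM in SN-011 hearts, with Adgre1 at 113, 81.3 and 106 CPM in the control hearts and 69.9, 58.1 and 87.4 CPM in the SN-011 hearts (log2 fold change −0.48, adjusted p = 0.163) and Csf1r at 164, 107 and 168 CPM in the control hearts and 133, 136 and 166 CPM in the SN-011 hearts (log2 fold change −0.02, adjusted p = 0.972). All 12 T cell markers were negative (median −0.49, 3 lower at an unadjusted p under 0.05), with Cd3e (log2 fold change −0.48, adjusted p = 0.373) and Cd8a (log2 fold change −0.38, adjusted p = 0.344) overlapping. Of 12 NK and cytotoxic markers, 11 were negative and 4 lower at an unadjusted p under 0.05; Nkg7 (log2 fold change −0.37, adjusted p = 0.324) and Ccl5 (log2 fold change −0.06, adjusted p = 0.904) overlapped. B cell markers hung on single hearts. Cd79a stood at 10.6, 3.798 and 103 CPM in the control hearts and 12.4, 39.8 and 0.82 CPM in the SN-011 hearts and Igkc at 276, 199.9 and 514 CPM in the control hearts and 157, 332 and 134 CPM in the SN-011 hearts, and the list median of −0.80 turned to 0.60 without control replicate 3. Of 10 neutrophil markers 4 were tested, and S100a8 (log2 fold change −0.43, adjusted p = 0.69) and S100a9 (log2 fold change 0.06, adjusted p = 0.964) were under 3 CPM in every heart. Of 7 mast cell markers, Kit alone was tested, at 8.598, 8.63 and 11.4 CPM in the control hearts and 4.702, 3.55 and 4.86 CPM in the SN-011 hearts (log2 fold change −1.13, adjusted p = 0.0566). T cell markers lower at an unadjusted p numbered 1 without control replicate 1, 10 without control replicate 2 (3 called) and 1 to 7 without one of the others, with medians from −0.74 to −0.31. NK and cytotoxic markers numbered 2 without control replicate 1, 7 without control replicate 2 (3 called) and 1 to 4 without one of the others, with medians from −0.72 to −0.30. The 3 macrophage and monocyte markers lower at that p became 1 without control replicate 1, 6 without control replicate 2 (2 called) and 1 to 4 without one of the others, with medians from −0.48 to −0.12. B cell markers lower were 2 and became 2 without control replicate 1, 3 without control replicate 2 and 1 to 4 without one of the others, with medians from −1.98 to 0.60. Kit passed without control replicate 2.

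Among the other cells, all 9 erythroid and platelet markers were positive, 6 of them higher at an unadjusted p under 0.05, with a median of 1.07. Hba-a1, a haemoglobin chain with a near-identical copy, overlapped at 585, 211 and 289 CPM in the control hearts and 1017, 703 and 561 CPM in the SN-011 hearts (log2 fold change 1.07, adjusted p = 0.139), and Ppbp rose (above). Those higher at that p numbered 8 without control replicate 1, 4 without control replicate 2 and 2 to 6 without one of the others (0 called), with medians from 0.81 to 1.78. The sum was 471 to 1274 CPM in control and 1288 to 2391 CPM in SN-011 hearts. Of 7 mesothelial markers tested, 5 were lower (median −1.24, unadjusted p under 0.05), but Krt8 and Krt19, also genes of gastric epithelium, stood at 5.01, 145 and 16.8 and 6.37, 129.8 and 26.5 CPM in controls 1 to 3, highest in the library with gastric RNA. Mesothelial markers lower at that p numbered 5 without control replicate 1 (1 called), 3 without control replicate 2 and 1 to 5 without one of the others, with medians from −1.84 to −0.79. Among 11 pericyte and smooth muscle markers (median −0.14, 1 lower at an unadjusted p under 0.05), Pdgfrb (log2 fold change −0.30, adjusted p = 0.295), Rgs5 (log2 fold change 0.13, adjusted p = 0.637) and Acta2 (log2 fold change −0.14, adjusted p = 0.8) overlapped between the groups. The 16 vascular endothelial markers had a median of 0.24 with 5 higher and 1 lower at an unadjusted p under 0.05, the 7 lymphatic endothelial markers one of −0.41 with 3 lower, the 7 dendritic cell markers tested one of −0.76 with 3 lower and the 5 Schwann cell and neuron markers tested one of −0.05 with 1 lower. Genes of fat cells were high in single hearts: Adipoq stood at 0.653, 0 and 18.03 CPM in the control hearts and 0.0672, 7.300 and 0 CPM in the SN-011 hearts, Plin1 at 0.599, 0 and 14.01 CPM in the control hearts and 0.0672, 8.94 and 0 CPM in the SN-011 hearts and Ucp1, which defines brown fat and was too low to test, at 0.0544, 0 and 0.107 CPM in the control hearts and 0.0672, 17.3 and 0 CPM in the SN-011 hearts. The 2 hearts with Adipoq above 5 CPM were also the 2 with the highest Scd1. The adipocyte sum was higher in every SN-011 heart while 4 of 6 members were negative, since Fabp4, which endothelial cells also express, made up most of it. Skeletal muscle markers Myh1, Myh2, Myh4, Myod1 and Pax7 were not tested, Pax7 having no count in any heart, and Acta1, which the heart also expresses, overlapped (log2 fold change 0.34, adjusted p = 0.462). The 3 dendritic cell markers lower at an unadjusted p became 2 without control replicate 1, 4 without control replicate 2 (1 called) and 2 to 3 without one of the others, with medians from −1.004 to −0.34, and the 3 lymphatic markers became 2 without control replicate 1, 4 without control replicate 2 and 2 to 4 without one of the others.

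**Figure D5:**
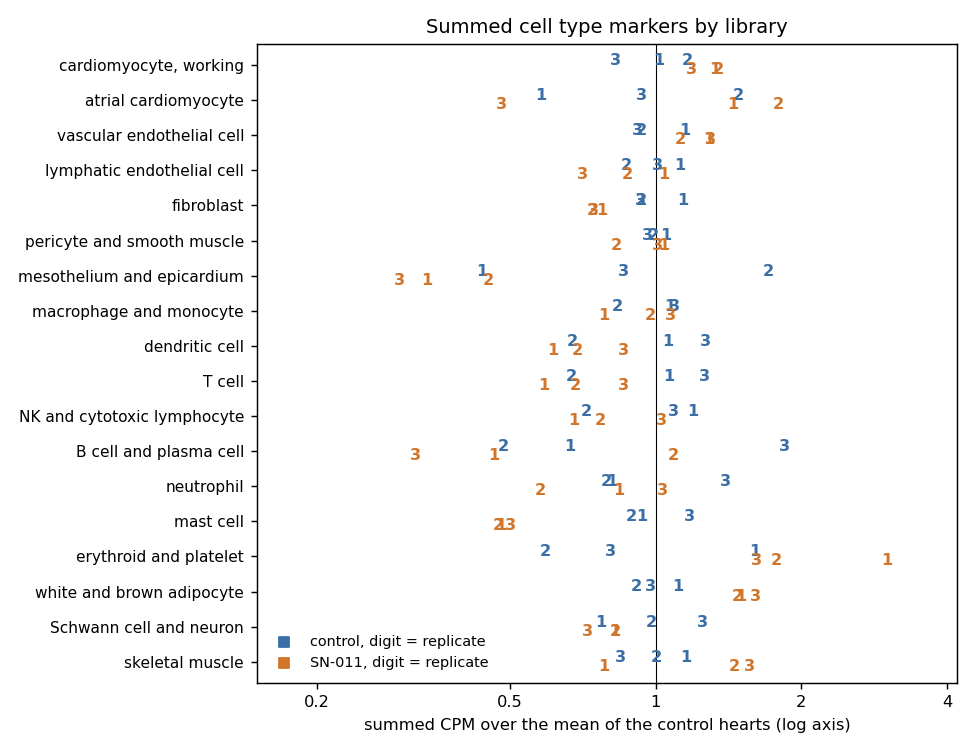
Summed CPM of each cell type marker list in each heart over the mean of the 3 control hearts (log axis). Digits give the replicate, blue for control and orange for SN-011. Working cardiomyocyte, erythroid and platelet, and adipocyte sums lie higher and fibroblast and mast cell sums lower in all SN-011 hearts. Most of the mast cell sum was Kit, and most of the adipocyte sum was Fabp4.

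Among called genes outside the lists, named here after their values were seen, several have known roles in the heart. Agt, the precursor of angiotensin, rose from 6.02 ± 0.976 to 18.3 ± 3.32 CPM (log2 fold change 1.60, standard error 0.20, adjusted p = 0.0221). Car4, a carbonic anhydrase of capillaries, rose from 19.7 ± 6.05 to 56.96 ± 6.55 CPM (log2 fold change 1.54, standard error 0.22, adjusted p = 0.0281). Glul, glutamine synthetase, rose from 391 ± 89.2 to 848 ± 73.2 CPM (log2 fold change 1.12, standard error 0.19, adjusted p = 0.0383). Prodh, which opens proline breakdown, rose from 20.7 ± 2.94 to 52.2 ± 8.798 CPM (log2 fold change 1.33, standard error 0.16, adjusted p = 0.0212). Acss1, a mitochondrial acetyl-CoA synthetase, rose from 142 ± 24.9 to 278 ± 39.5 CPM (log2 fold change 0.97, adjusted p = 0.0403). Abra, an actin-binding protein of striated muscle, rose from 47.7 ± 8.99 to 108 ± 7.43 CPM (log2 fold change 1.18, adjusted p = 0.0221), and Asb11, a muscle ubiquitin ligase subunit, from 114 ± 14.04 to 219.6 ± 30.9 CPM (log2 fold change 0.95, adjusted p = 0.0308). The nuclear RNA Neat1 rose from 1347 ± 209 to 3582 ± 327 CPM (log2 fold change 1.41, adjusted p = 0.0221). Gucy1a1, a subunit of the nitric oxide receptor, fell from 33.9 ± 5.14 to 16.6 ± 2.67 CPM (log2 fold change −1.03, adjusted p = 0.0368), and the plexin Plxnd1 of endothelial cells fell from 157 ± 24.4 to 90.6 ± 8.77 CPM (log2 fold change −0.79, adjusted p = 0.0454).

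Whether the heart differed from the stomach, muscle and tongue was tested as the heart's change less the mean change of the other 3 tissues, in a joint fit of 24 samples. Of 19731 genes, 0 passed the adjusted threshold (0%) and 934 an unadjusted p under 0.05 (4.73%). No gene is therefore called particular to the heart. The 5 smallest p-values in each direction belonged to Ppip5k2, Pdhb, Tnik, Trmt5 and 1700025G04Rik, and to Kcnf1, Ttll10, Procr, Kcnk1 and Hunk. Among them were Ppip5k2 (a difference of 1.20 in log2 fold change with a standard error of 0.24, adjusted p = 0.748) and Pdhb (0.74, 0.17, adjusted p = 0.994) on the higher side, and Procr (−1.34, 0.34, adjusted p = 0.994) and Hunk (−2.44, 0.62, adjusted p = 0.994) on the lower side. Kcnf1, Ttll10 and Kcnk1 had too few counts in the heart to be tested there alone. Of the 137 genes, 127 were also tested in the stomach and muscle and 128 in the tongue. In stomach, muscle and tongue, 96, 115 and 111 of them had the same sign, and 57, 59 and 54 also an unadjusted p under 0.05. Fitted alone, these tissues had 0, 2 and 0 called genes. The share of all genes with the same sign was not computed, so these counts have no background. Control replicate 1 had the female pattern of Xist in all 4 tissues, so the tissues may come from the same mice and are not independent of each other. Muscle SN-011 replicate 2 had counts in 11546 genes, against 19798 to 21387 in the other muscle samples. All muscle values given here and below include it.

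Side by side, the median log2 fold change of the glucocorticoid targets was 1.23 in the heart, against 1.21 for stomach, 1.34 for muscle and 0.74 for tongue. For nuclear complex I the same 4 medians, in that order, were 0.50, −0.66, 0.48 and 0.16, and 11 of 37 genes passed an unadjusted p under 0.05 in the test of the difference, a share of genes to be read beside 4.73% overall. Other lists had larger shares in that test. Among them, complexes II to V had 18 of 40 (medians 0.49, −0.91, 0.49 and 0.11). Pyruvate dehydrogenase and the Krebs cycle had 15 of 29 (medians 0.30, −0.66, 0.11 and −0.01). The matrix list stood at −0.51, 0.75, −0.72 and −0.29 (4 of 34 in that test). The cell cycle list stood at −0.69, −0.86, −0.85 and 0.04 (2 of 32), and the cholesterol list at −0.40, −1.12, −0.75 and −0.62 (0 of 22).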

How the data were processed

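RNA-Seq was made from poly(A)-selected RNA as paired reads of 150 bp. Per the labels the authors aligned reads with HISAT2 to mm10 and counted them with HTSeq; the study's methods name featureCounts and another sequencer, and whether counting used strand is not given in the sources used here. The deposited values are raw counts per gene, 54532 genes a file, with no normalization, and every total in the heart lay between 14392199 and 17337989. Gene symbols and positions were taken from GENCODE M21.

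The 3 control and 3 SN-011 hearts were compared with edgeR 4.0.16 in R 4.3.3 (glmQLFit and glmQLFTest, TMM, filterByExpr with a minimum count of 10 and a minimum total of 15, prior count 0.125), the p-values of all tested genes being adjusted by Benjamini-Hochberg at a threshold of 0.05. The standard error of a log2 fold change is its size over the square root of F. CPM values of genes use TMM-scaled library sizes and those of the gastric genes use total counts. The difference from the other tissues came from a joint fit of 24 samples. Lists were described by counts and medians, with no test of a list. The members and the 63 lists were chosen with earlier results of these data known. Named are the 12 largest rises and falls among called genes without overlap and with at least 1 CPM in the higher group (predicted genes and pseudogenes are counted), every called list member, the marker genes of each list, up to 3 further members of a list with the smallest p, and the 5 smallest p-values each way for the tissue difference; others are marked in the text. Results for some genes the rule takes are not reported here. Alternatives used DESeq2 1.42.0, limma 3.58.1 (voom) and edgeR's exact test, other scalings and filters, the replicate number as a block, and each library left out.

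Same-numbered hearts did not deviate together (correlations of 0.107, −0.137 and −0.154 over genes), so the numbers were not taken to pair the samples. With so few hearts, these correlations cannot exclude a pairing. No 2 replicates held identical counts. Motifs were searched as letters in the 250 bases before the start in RefSeq promoters.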

Additional observations from a re-analysis of the deposited data

How the results depend on the processing

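The number of changed genes depended on the test, filter and libraries, against 137 (84 higher, 53 lower) as reported. The DESeq2 Wald test called 1361 (703 higher, 658 lower), edgeR's exact test 912 (461 and 451), no filter on low counts 1888 (700 and 1188) and at least 10 counts in every library 265 (137 and 128). Library size alone gave 249 (65 and 184), limma-voom 112 (77 and 35) and the joint fit of all tissues 1 (0 and 1). DESeq2 size factors gave 137 and leaving out mitochondrial genes 141. Leaving out 1 library gave 1 to 787 calls, 0 to 379 of them higher and 1 to 408 lower; the extremes were without SN-011 replicate 2 and without control replicate 2. The cause of these differences was not tested. The replicate number as a block gave 242 calls (126 higher and 116 lower), 115 of them among the 137. Neither the labels nor the study's methods say that the numbers pair these hearts. The difference between tissues stood at 0 genes in the other alternatives and at 1 without control replicate 2.

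Genes with log2 fold changes near 0 or carried by 1 heart turned sign. With library size alone these were Myl7 (−0.12), Pecam1 (−0.15), Rgs5 (−0.0191), S100a9 (−0.11), Ankrd1 (−0.13) and Hk2 (−0.0615). With limma-voom they were Myl7 (−0.22), Sln (−0.20), Csf1r (0.0119) and Edn1 (0.14), and with the replicate block Myl7 (−0.16), Sln (−0.0724), Csf1r (0.0061) and Edn1 (0.18). Edn1 was 0.0023 in the exact test, and Pecam1 was −0.0132 without a filter and −0.0076 without mitochondrial genes. Leaving out 1 library, the log2 fold changes ran from −0.45 to 0.22 for Acta2, from −7.28 to 2.78 for Adipoq, from −0.13 to 0.25 for Ankrd1, from −0.0729 to 0.48 for Arntl, from −0.0011 to 0.31 for Atp2a2, from −0.29 to 0.0895 for Ccl5, from −2.57 to 1.28 for Cd79a, from −0.20 to 0.0859 for Csf1r, from −0.23 to 0.058 for Dcn, from −0.31 to 0.65 for Edn1, from −1.10 to 0.0018 for Fasn, from −0.32 to 0.0419 for Hmox1, from −0.16 to 0.10 for Irf7, from −0.57 to 0.81 for Myl7, from −0.34 to 0.17 for Nfkbia, from −0.25 to 0.0841 for Nqo1, from −0.0702 to 0.12 for Pecam1, from −6.93 to 3.19 for Plin1, from −0.81 to 0.42 for S100a8, from −0.27 to 0.86 for S100a9, from −3.72 to 1.73 for Scd1 and from −0.65 to 0.96 for Sln.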

Other observations

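The gene with the smallest p of all genes tested was Gm7993, a processed pseudogene of the ornithine decarboxylase gene Odc1 on chromosome 5, 95974240 to 95975623. It stood at 18.4, 12.4 and 25.1 CPM in the control hearts and at 0.201, 0.132 and 0.126 CPM in the SN-011 hearts (edgeR log2 fold change −6.87, standard error 0.40, adjusted p = 0.000533). Odc1 itself, at 99.9, 76.4 and 51.0 CPM in the control and 82.5, 83.3 and 88.7 CPM in the SN-011 hearts, overlapped between the groups. In the other tissues Gm7993 had 179 to 1076 counts in the control and 0 to 33 counts in the SN-011 samples. The copies share sequence, so reads may be split between them. The cause of the difference in Gm7993, which every tissue showed, was not tested. Treatment cannot be told apart here from any other difference between the control and SN-011 mice. Gm7993 was named after its values were seen.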
